A study of Mus musculus with 4 samples.

Results

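Nrp1, Gpr83, Izumo1r, Fgl2, Swap70 and Lrrc32 are genes that the literature on regulatory T cells uses to tell cells that matured in the thymus from cells induced in peripheral tissue, or to mark regulatory T cells as such. These 6 genes were chosen by name, and 5 of them were among the 18193 genes with at least 1 probe set of a single gene symbol on the array. Lrrc32 was not analysed here, because no probe set carried its symbol or gene identifier in the annotation used. Expression was measured in CD4 T cells from the large intestine lamina propria, the tissue layer beneath the gut epithelium, of mice of mixed 129/B6 background that were heterozygous for a GFP knock-in at the Gpr15 locus. GFP-positive cells, which express the colon homing receptor gene Gpr15, were compared with GFP-negative cells. Both fractions therefore carry the same GFP allele. There are 2 Affymetrix arrays for GFP-positive cells and 2 for GFP-negative cells, and in each group they are called replicate 1 and replicate 2. The labels give no age, no sex and no number of mice, so the spread between arrays may be partly technical and p-values measure that spread only.

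Regulatory T cells restrain other lymphocytes and depend on the transcription factor Foxp3. Some acquire Foxp3 in the thymus, while others acquire it from conventional CD4 T cells in peripheral tissue, and the colon is known for cells of the second kind that respond to the microbiota. High Nrp1 and Ikzf2 (Helios) are commonly used as signs of thymic origin, although activated cells can express either. The remaining members are less specific: Gpr83 and Izumo1r mark regulatory T cells at large, Fgl2 is a secreted effector, and Swap70 has been reported with the thymic signature.

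The sort was visible in the arrays. Gpr15 had signals of 619 and 729 in GFP-positive cells, against 146 and 162 in GFP-negative cells (replicates 1 and 2, deposited linear intensities). Foxp3 had signals of 441 and 472 in GFP-positive cells, against 76.6 and 72.2 in GFP-negative cells, a log2 difference of 2.38 (95% interval 1.87 to 2.90, adjusted p = 0.0738 by limma). The series text once describes the GFP-negative fraction as lacking CD4, but Cd4 had signals of 540 and 533 in GFP-positive cells and 501 and 587 in GFP-negative cells, and the T cell receptor chain gene Cd3e was bright on all 4 arrays. The replicate numbers split the arrays in a second way. The X-inactivation transcript Xist had signals of 4313 and 112 in GFP-positive cells and 4172 and 55.1 in GFP-negative cells. The Y-linked gene Eif2s3y had 5.08 and 2177, against 18.9 and 2329. By these genes the RNA of replicate 1 reads as mostly female and that of replicate 2 as mostly male. Sex and replicate number cannot be told apart, and the spread within each group includes both. For the members, the difference between the arrays of each number is therefore given beside the pooled one.

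The 5 measured members did not share a direction. Swap70 and Fgl2 were higher in both GFP-positive samples than in both GFP-negative samples, Izumo1r was lower, and the groups of Nrp1 and Gpr83 overlapped. Of the 5, 0 passed an adjusted p of 0.05 in the limma fit, as did 0 of the 12241 tested genes (0%). An unadjusted p under 0.05 was found for 3 of the 5 (14.4% of tested genes), 2 of them higher (10.2%) and 1 lower (4.26%). The groups did not overlap for 3 of the 5 (47.4% of tested genes), with 2 higher (28.9%) and 1 lower (18.5%). Of these, Swap70 and Fgl2 also differed by at least 2-fold on the log2(signal + 16) scale, as did 3.82% of tested genes in the higher direction, and 0 members did so in the lower direction (1.36%). In sign alone 3 members were positive (57.9%) and 2 negative (42.1%). All 5 passed the filter on dim genes, with group means above it on both sides. All differences given are GFP-positive minus GFP-negative on the log2(signal + 16) scale, which understates the change of dim genes, and in bulk RNA fewer cells of a type and less RNA per cell cannot be told apart.

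**Figure D1:**
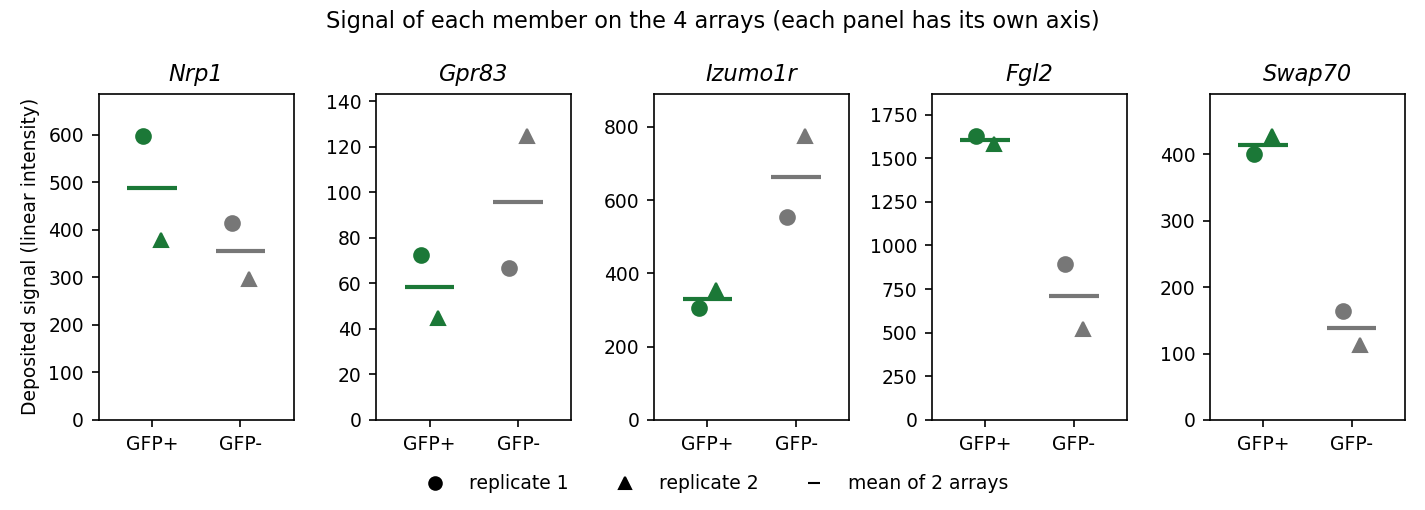
Deposited linear signal of the 5 measured members on each array, GFP-positive (GFP+) left and GFP-negative (GFP-) right, with circles for replicate 1, triangles for replicate 2 and a bar for the mean of 2 arrays. Swap70 and Fgl2 lie higher in both GFP-positive samples and Izumo1r lower, while Nrp1 and Gpr83 overlap; each panel has its own axis, since levels of different probe sets are not comparable.

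Swap70 showed the largest difference of the 5. It encodes a phosphoinositide-binding signalling protein that acts with Rac on the actin cytoskeleton, best known from B cells and mast cells, and lies on chromosome 7 (110221703 to 110283506, GRCm38.p6). On its brightest probe set the signals of Swap70 were 400 and 428 in GFP-positive cells, against 164 and 112 in GFP-negative cells. The GFP-positive arrays lay close together and well above both GFP-negative arrays. Means were 414 ± 19.4 in GFP-positive and 138 ± 36.9 in GFP-negative cells (SD, n = 2 each), a log2 difference of 1.50 (95% interval 0.87 to 2.13, limma adjusted p = 0.149). Within the replicate numbers it was 1.21 and 1.79. The second probe set of Swap70 gave signals of 175 and 225 in GFP-positive cells, against 61.9 and 72.9 in GFP-negative cells, a difference of 1.37 (0.77 to 1.97), so both probe sets separated the groups, as did 28.1% of all tested probe sets in the higher direction and 17.9% in the lower. Of the tested genes, 99.3% had a lower difference than Swap70 and 98.2% a lower one than Fgl2.

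Fgl2 encodes a fibrinogen-like protein that regulatory T cells secrete as a suppressive mediator and that macrophages and endothelium also make. On its brightest probe set the signals of Fgl2 were 1627 and 1579 in GFP-positive cells, against 896 and 521 in GFP-negative cells. The GFP-positive arrays differed little from each other, and the GFP-negative arrays lay below them and further apart. Means were 1603 ± 33.9 in GFP-positive and 709 ± 265 in GFP-negative cells (SD, n = 2 each), a log2 difference of 1.21 (95% interval 0.45 to 1.97, limma adjusted p = 0.230). The replicate 1 arrays differed by 0.85 and the replicate 2 arrays by 1.57. The second probe set of Fgl2 gave signals of 198 and 124 in GFP-positive cells, against 57.7 and 47.2 in GFP-negative cells, a difference of 1.34 (0.63 to 2.05).

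On their brightest probe sets Swap70 and Fgl2 had much the same profile over the 4 arrays. The second probe set of Fgl2 ran otherwise, at 1.54 within replicate 1 and 1.14 within replicate 2. For the brightest probe set of Swap70 these values were 1.21 and 1.79. Likeness was measured as the root mean square difference of the centred log2 values over the 4 arrays, and it was 0.18 between the pair, whereas other pairs of members lay between 0.35 and 1.28. Of the tested genes, 31 were closer to Swap70 than Fgl2 was, and 96 were closer to Fgl2 than Swap70 was. The genes nearest to Swap70 were Ebi3, a subunit of the suppressive cytokine interleukin-35 (0.056), and the transcription factor gene Tfap2a (0.064). Ebi3 had signals of 160 and 171 in GFP-positive cells, against 67.4 and 38.9 in GFP-negative cells. Tfap2a had 55.3 and 66.1, against 18.9 and 7.84. Its GFP-negative signals lay below the filter on dim genes, which it passed through its GFP-positive signals. Nearest to Fgl2 were Mvk, which encodes mevalonate kinase (0.043), and Pcbd1 (0.044), with signals of at most 56.7 and 23.3 in GFP-negative cells. With 4 arrays such nearness describes these samples only.

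Promoter sequence is shown for the pair because the signals of their brightest probe sets ran alike. The stretches are the 250 bases before the transcript start that the RefSeq promoter table uses, which for Swap70 and Fgl2 is also the outer end of the gene, written 5′ to 3′ on the gene's strand, from RefSeq (GRCm38.p6), at chr7:110221453-110221702 on the plus strand for Swap70 and chr5:21372423-21372672 on the plus strand for Fgl2. Capitals mark matches, on either strand, to 5 short patterns: a forkhead core (TGTTTAC), an NFAT core (TGGAAA), a RUNX core (TGTGGT), a STAT pattern (TTCNNNGAA) and a TATA pattern (TATAAA).
Swap70: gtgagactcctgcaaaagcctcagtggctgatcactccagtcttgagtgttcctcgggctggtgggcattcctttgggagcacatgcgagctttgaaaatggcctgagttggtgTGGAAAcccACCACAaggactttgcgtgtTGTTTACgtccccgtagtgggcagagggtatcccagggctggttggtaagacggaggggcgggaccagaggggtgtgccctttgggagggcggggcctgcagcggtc
Fgl2: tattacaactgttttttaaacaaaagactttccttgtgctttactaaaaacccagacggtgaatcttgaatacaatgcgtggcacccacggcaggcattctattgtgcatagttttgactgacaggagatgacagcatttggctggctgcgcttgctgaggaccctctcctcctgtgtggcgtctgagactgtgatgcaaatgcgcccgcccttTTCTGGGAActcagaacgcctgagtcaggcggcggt
The Swap70 stretch held the NFAT pattern 136 bases before the start, the RUNX pattern on the opposite strand 127 bases before it and the forkhead pattern 107 bases before it, without overlap. The Fgl2 stretch held the STAT pattern 36 bases before the start and no other, so the pair shared no pattern here. Of 32851 promoter stretches of this length, 3.17% held the forkhead pattern, 18.6% the NFAT, 14.0% the RUNX, 7.02% the STAT and 12.4% the TATA pattern. These are matches of letters only. Fgl2 lies within the span of Ccdc146 on chromosome 5 (21372673 to 21378386 within 21292422 to 21424677).

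Some markers of other cells were higher in GFP-positive cells too. All 14 tested myeloid and dendritic cell markers of 18 on the list had a positive difference, where 57.9% of tested genes did. The groups did not overlap for 7 of the 14, all higher, as for 28.9% of tested genes. Their median was 0.79, against 0.08 over all tested genes, and under median scaling 0.53 against -0.20. The summed signal of the list was 2033 and 4450 in GFP-positive cells, against 1145 and 1881 in GFP-negative cells, and no marker was listed at 0, although 4 were too dim to test. The macrophage receptor gene Csf1r had the largest difference of the 14, at 1.93. Its signals were 35.5 and 164 in GFP-positive cells, against 7.73 and 10.7 in GFP-negative cells. Csf1r and some other markers passed the filter on dim genes through their GFP-positive signals, which favours a positive difference. The 4 too dim to test were positive as well in the fit without that filter, with intervals that crossed 0. The brightest markers of the list were Cst3, Cd74 and H2-Aa, at 0.56, 1.14 and 1.21, and the groups of Cd74 and H2-Aa overlapped. Without GFP-positive replicate 2 the myeloid median was 0.27, the difference of Fgl2 was 1.23 and that of Swap70 was 1.45. The part of these markers in the values of Fgl2 and Swap70 was not tested. All 7 tested B and plasma cell markers were also positive, some of them with a GFP-negative mean below the filter. Their median was 0.62, or 0.35 under median scaling, and 0.87 and 0.19 within the replicate numbers. Their summed signal was 6838 and 4683 in GFP-positive cells and 4116 and 4880 in GFP-negative cells, most of it from the plasma cell gene Jchain. CD8 T cell, natural killer and mast cell markers were mostly dim, with 3 of 9 tested and sums of 289 and 401 in GFP-positive cells, against 225 and 178 in GFP-negative cells. The part of B, plasma and mast cell markers in the value of Swap70 was not tested either.

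Izumo1r was the member that ran lower. It encodes folate receptor 4, also named Juno, which in T cells is a surface marker of regulatory, follicular helper and anergic cells and which on the mouse egg binds the sperm protein Izumo1. The signals of Izumo1r were 304 and 356 in GFP-positive cells, against 554 and 775 in GFP-negative cells. Both GFP-positive arrays lay below both GFP-negative arrays. Means were 330 ± 36.2 in GFP-positive and 665 ± 156 in GFP-negative cells (SD, n = 2 each), a log2 difference of -0.96 (95% interval -1.60 to -0.32, limma adjusted p = 0.240). The replicate 1 arrays differed by -0.83 and the replicate 2 arrays by -1.09. Of the tested genes, 1.53% had a more negative difference. Izumo1r had 1 probe set, of a type (suffix _s_at) that can bind transcripts of more than 1 gene, so no second probe set bears on it.

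Gpr83, a G protein-coupled receptor gene that Foxp3 is known to regulate, gave no stable difference. On its brightest probe set the signals of Gpr83 were 72.2 and 44.9 in GFP-positive cells, against 66.5 and 125 in GFP-negative cells. The groups overlapped, and the highest value was that of GFP-negative replicate 2. The log2 difference was -0.56 (95% interval -1.42 to 0.31, limma adjusted p = 0.518). It was 0.096 within replicate 1 but -1.21 within replicate 2. The second probe set of Gpr83 showed the same split, at 0.53 within replicate 1 and -1.10 within replicate 2, for a pooled difference of -0.29 (-1.31 to 0.73). Without GFP-negative replicate 2 the difference of Gpr83 was -0.17, without GFP-positive replicate 2 it was -0.29, and without GFP-negative replicate 1 it was -0.94.

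Izumo1r and Gpr83 are neighbours on chromosome 9, at 14885814 to 14903951 and 14859880 to 14870789 in GRCm38.p6, with 15.0 kb and no annotated gene between them. Their profiles lay 0.35 apart, with 927 tested genes closer to Izumo1r than Gpr83 was. The genes nearest to Izumo1r were Ccdc126 (0.029) and Lax1, which encodes an adaptor that dampens lymphocyte receptor signals (0.061). Lax1 had signals of 137 and 152 in GFP-positive cells, against 272 and 349 in GFP-negative cells. Nearest to Gpr83 were Ptprg (0.025), a receptor phosphatase gene, and Rccd1 (0.072), with mean signals of 39.5 and 41.3 over the 4 arrays.

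Their promoters are shown because these adjacent genes differ in base composition before these starts. Capitals mark the same 5 patterns as above, and the stretches are chr9:14903768-14904017 on the minus strand for Izumo1r and chr9:14859960-14860209 on the plus strand for Gpr83. The transcript starts behind them lie 184 bases (Izumo1r) and 330 bases (Gpr83) inside the gene's outer end as listed, so part of the Izumo1r stretch and all of the Gpr83 stretch fall within the listed gene.
Izumo1r: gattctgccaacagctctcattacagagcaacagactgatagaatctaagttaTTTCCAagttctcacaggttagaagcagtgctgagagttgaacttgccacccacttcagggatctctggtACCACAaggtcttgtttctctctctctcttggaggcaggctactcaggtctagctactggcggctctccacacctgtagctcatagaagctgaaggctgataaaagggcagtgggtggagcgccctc
Gpr83: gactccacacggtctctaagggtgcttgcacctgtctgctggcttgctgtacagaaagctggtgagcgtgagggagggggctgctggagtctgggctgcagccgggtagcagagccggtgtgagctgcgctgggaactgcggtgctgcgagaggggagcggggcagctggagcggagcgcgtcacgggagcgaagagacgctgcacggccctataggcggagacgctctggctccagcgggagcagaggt
The Izumo1r stretch held the NFAT pattern 197 bases and the RUNX pattern 127 bases before the transcript start used, both on the opposite strand, and the Gpr83 stretch held none of the 5. The Gpr83 stretch was rich in G and C (66.8%) with 18 CpG pairs, while the Izumo1r stretch had 50.0% G and C and 2 CpG pairs. The medians over all 32851 stretches were 52.4% and 6. Fgl2 and Swap70 had 49.6% and 59.6% with 10 and 9 CpG pairs, and Nrp1, not printed, had 64.4% with 11 and none of the 5 patterns, before a transcript start 482 bases inside the listed gene.

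Nrp1 encodes neuropilin 1, a co-receptor for semaphorins and vascular endothelial growth factor, which on regulatory T cells of mice binds semaphorin 4A. It lies on chromosome 8 (128358591 to 128505476, GRCm38.p6). On its brightest probe set the signals of Nrp1 were 598 and 379 in GFP-positive cells, against 415 and 297 in GFP-negative cells. The groups overlapped, since GFP-positive replicate 2 lay below GFP-negative replicate 1, while within each replicate number the GFP-positive array was the higher. Means were 488 ± 154 in GFP-positive and 356 ± 83.3 in GFP-negative cells (SD, n = 2 each), a log2 difference of 0.42 (95% interval -0.35 to 1.20, limma adjusted p = 0.581). The replicate 1 arrays differed by 0.51 and the replicate 2 arrays by 0.34. A log2 difference of 0 and one of 1, which is 2-fold, both lie within this interval.

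The other 3 probe sets of Nrp1 had differences of 0.31, 0.39 and 0.33. One was bright, with 0.42 and 0.37 within the replicate numbers, and the dimmer pair turned to -0.24 and -0.30 within replicate 2. Without GFP-positive replicate 1 the difference of Nrp1 was 0.11, and without GFP-negative replicate 2 it was 0.19. GFP-positive replicate 1 also carried the most epithelial signal, with a sum over 10 epithelial markers of 3038 and 699 in GFP-positive cells, against 851 and 947 in GFP-negative cells. Endothelial, stromal and platelet markers, whose cells also express Nrp1, summed to 773 and 1205 in GFP-positive cells, against 571 and 1236 in GFP-negative cells. The part of either list in the Nrp1 value was not tested. Nearest to Nrp1 in profile were Adcyap1 (0.020), a neuropeptide gene, and Pde1a (0.022).

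**Figure D2:**
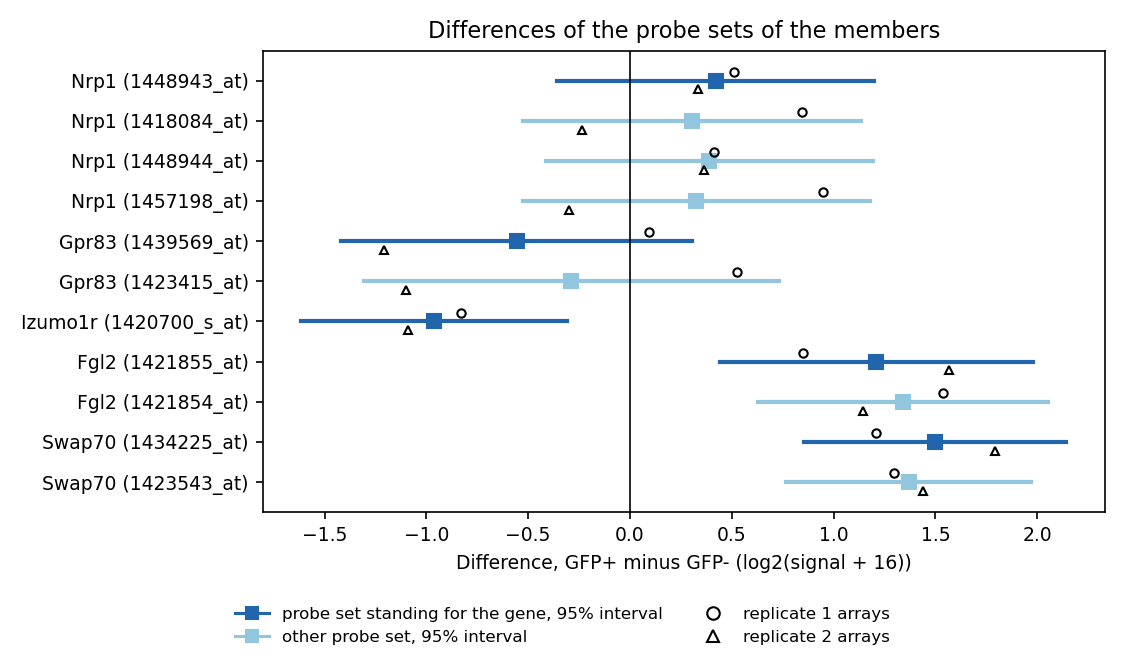
Log2 difference, GFP-positive minus GFP-negative, of all 11 probe sets of the 5 measured members: squares with 95% limma intervals (dark for the probe set that stands for the gene), circles for the replicate 1 arrays and triangles for the replicate 2 arrays. Both probe sets of Swap70 and of Fgl2 lie above 0 with their intervals, Izumo1r lies below 0, all Nrp1 and Gpr83 intervals cross 0, and the Gpr83 circles and triangles lie on opposite sides of 0.

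Other genes reported to mark thymic or peripheral origin also ran in both directions. That list holds genes reported for either origin, so its counts and median carry no sign of origin. Of 9 such genes 6 were tested, 0 were called, and 3 were higher and 2 lower with groups that did not overlap, as were 28.9% and 18.5% of all tested genes. Their median was 0.36, or 0.05 under median scaling. Ikzf2 had signals of 4364 and 3833 in GFP-positive cells, against 2661 and 2526 in GFP-negative cells, a difference of 0.65 (0.13 to 1.18, limma adjusted p = 0.278), or 0.34 under median scaling, and its other probe sets gave 1.23 and 2.10. Ahr, which encodes a sensor of dietary and microbial ligands, differed by 0.89 (0.25 to 1.54), or 0.58 under median scaling, and its dimmer probe set gave 0.15 with overlapping groups. Gata3 differed by 0.73 (-0.20 to 1.67), or 0.42 under median scaling, and by 0.29 without GFP-negative replicate 2, 0.47 without GFP-positive replicate 1 and 1.18 without GFP-negative replicate 1. Maf, a factor of colonic peripheral regulatory T cells and of interleukin-10 production, differed by 0.074 (-0.48 to 0.63) and turned to -0.24 under median scaling. Of its other 5 probe sets, 4 were positive, between 0.22 and 0.61. The negative one, at -0.60, was dim, with a mean signal of 41.5. The groups of all 5 did not overlap, as held for 28.1% of tested probe sets in the higher direction and 17.9% in the lower. Dapl1 and Igfbp4, both reported at higher levels in peripherally induced regulatory T cells and also expressed by naive T cells, ran the opposite way to Ikzf2. Origin itself was not tested. Dapl1 had signals of 73.4 and 14.3 in GFP-positive cells, against 242 and 330 in GFP-negative cells, a difference of -2.52 (-3.83 to -1.21), -1.53 within replicate 1 but -3.51 within replicate 2. Its signal in GFP-positive replicate 2 lay below the filter on dim genes, and with a pseudocount of 64 the difference was -1.74. Igfbp4 had signals of 84.3 and 168 in GFP-positive cells, against 272 and 411 in GFP-negative cells, a difference of -1.37 (-2.30 to -0.43). Its other 5 probe sets were negative too, though that at -0.31 had overlapping groups and that at -0.82 lay below the filter.

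Regulatory T cell genes at large were nearly all higher in GFP-positive cells. Of 24 tested of 25 on the list, Ikzf2 among them, 23 had a positive difference and groups that did not overlap, which held for 28.9% of all tested genes. The median was 0.86, beside 0.08 for all tested genes, and under median scaling 0.58 beside -0.20. By limma 0 reached the threshold on the adjusted p, and 15 were higher with an unadjusted p under 0.05, as were 10.2% of all tested genes. This list was chosen with earlier results of these data known. Il10 differed by 1.62, the integrin gene Itgae by 2.30 and the granzyme gene Gzmb by 2.29. The brightest gene on the list, Ctla4, differed by 0.31 and turned to -0.0081 under median scaling.

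Binding partners and pathway neighbours of the members showed no common direction. Of 33 listed genes 24 were tested, and their median was 0.13, or -0.15 under median scaling. By limma 0 were called, while an unadjusted p under 0.05 was reached by 4 with positive and 3 with negative differences. Over all tested genes those shares were 10.2% and 4.26%. The groups did not overlap for 8 higher and 6 lower genes, where the shares over all tested genes were 28.9% and 18.5%. The semaphorin 4A gene, Sema4a, whose product is the ligand of Nrp1 on regulatory T cells, had signals of 15.5 and 11.1 in GFP-positive cells, against 159 and 153 in GFP-negative cells. The GFP-positive signals lay below the filter on dim genes (29.53), which Sema4a passed through its GFP-negative signals, so its fitted difference depends on the pseudocount: it was -2.56, or -1.51 with a pseudocount of 64. That probe set is of a type (suffix _x_at) open to cross-hybridisation, and a second one gave signals of 60.9 and 26.9 in GFP-positive cells, against 87.0 and 59.9 in GFP-negative cells, a difference of -0.62 with overlapping groups.

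Latent TGF-beta, which the Lrrc32 product holds on the cell surface, is released by integrin alphavbeta8. Its beta chain gene Itgb8 had signals of 374 and 433 in GFP-positive cells, against 86.4 and 102 in GFP-negative cells, a difference of 1.93 (1.38 to 2.48, adjusted p = 0.0971). The alpha chain gene Itgav was very bright and differed by 0.11 on its brightest probe set, or -0.21 under median scaling, while 3 others gave 1.16, 1.44 and 1.49 with groups that did not overlap. Tgfb1, the ligand gene, differed by 0.75 (0.21 to 1.29), or 0.49 with a pseudocount of 64 and under median scaling, and a dimmer probe set of it gave 0.052. The receptor genes Tgfbr1 and Tgfbr2 differed by 0.87 and -0.76, but by 0.39 and 0.073 with the mean of their probe sets, and Tgfbr1 by 0.55 under median scaling. For each gene that mean includes a probe set below the filter on dim genes. A further probe set above the filter gave 0.38 for Tgfbr1 and 0.25 for Tgfbr2, with overlapping groups. Pcsk1, which encodes a prohormone convertase that processes the precursor of the peptide ligand PEN of Gpr83, had signals of 87.5 and 87.2 in GFP-positive cells, against 20.3 and 27.6 in GFP-negative cells. Here the GFP-negative signals lay below the filter, and the fitted difference was 1.38, or 0.78 with a pseudocount of 64. The gene of that precursor, Pcsk1n, was dim on all 4 arrays. Def6, the close relative of Swap70, had a negative difference of -0.54 (-1.07 to -0.0082), or -0.83 under median scaling, in contrast to Swap70 itself.

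Izumo1r is also a gene of follicular helper and anergic T cells, and that list was lower in the median, at -0.85 over 14 tested of 15. Of the 14, 7 were lower and 4 higher with groups that did not overlap, and an unadjusted p under 0.05 was reached by 7 of the lower and 2 of the higher genes. Over all tested genes the groups did not overlap for 18.5% lower and 28.9% higher, and the unadjusted p was under 0.05 for 4.26% lower and 10.2% higher. Il21, Il6ra, Btla, Slamf6, Egr2 and Egr3 were among the lower ones, at -3.68, -1.58, -1.32, -1.10, -1.09 and -1.09. With the mean of probe sets Il6ra gave -0.88 and Egr3 -0.37, each averaged with a probe set below the filter on dim genes. Il21 was uneven, -2.44 within replicate 1 but -4.91 within replicate 2. The Il21 signal in GFP-positive replicate 2 (10.7) lay below that filter, and with a pseudocount of 64 its difference was -2.72. Pdcd1, the gene of the receptor PD-1, was among the higher ones at 1.06, as were the bright genes Tox at 0.58 and Tox2 at 0.28. Bcl6, the lineage factor of follicular helper cells, differed by -0.14 (-0.69 to 0.42). Over all alternatives the list's median lay between -1.14 and -0.28.

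**Figure D3:**
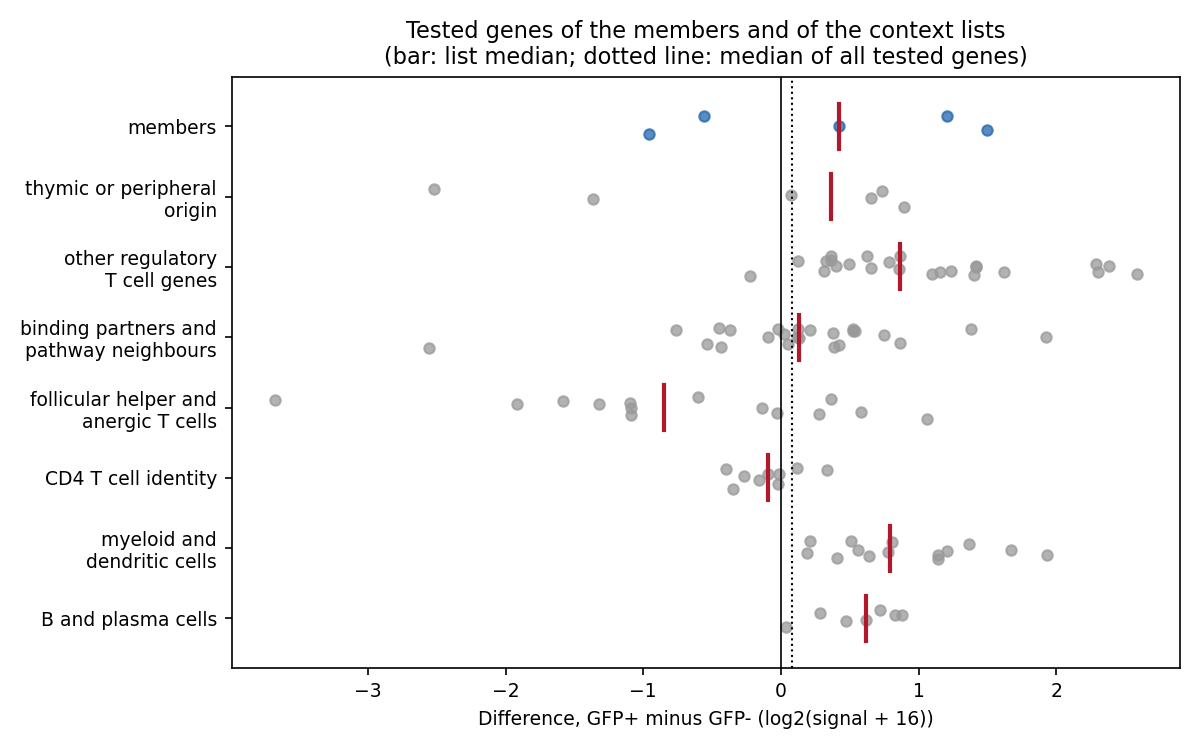
Log2 difference, GFP-positive minus GFP-negative, of the tested genes (points) of the members and of 7 context lists, with list medians as bars and the median of all tested genes as a dotted line. The members lie between -0.96 and 1.50 on both sides of 0, other regulatory T cell genes lie nearly all above 0, and follicular helper and anergic T cell genes have a median of -0.85.

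The direction of every measured member was the same in the fit as reported and in all 15 alternatives tried. Other filters, trend and robust settings and the replicate block cannot move these differences. Choosing probe sets by mean log2 value kept the same probe sets for the members. All alternatives reuse the same 4 arrays. Nrp1 ranged from 0.11 to 0.74, Gpr83 from -0.94 to -0.17, Izumo1r from -1.27 to -0.72, Fgl2 from 0.83 to 1.59 and Swap70 from 1.20 to 1.75. Median scaling moved the median of all tested genes by -0.27, and the difference of Nrp1 was then 0.12.

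**Figure D4:**
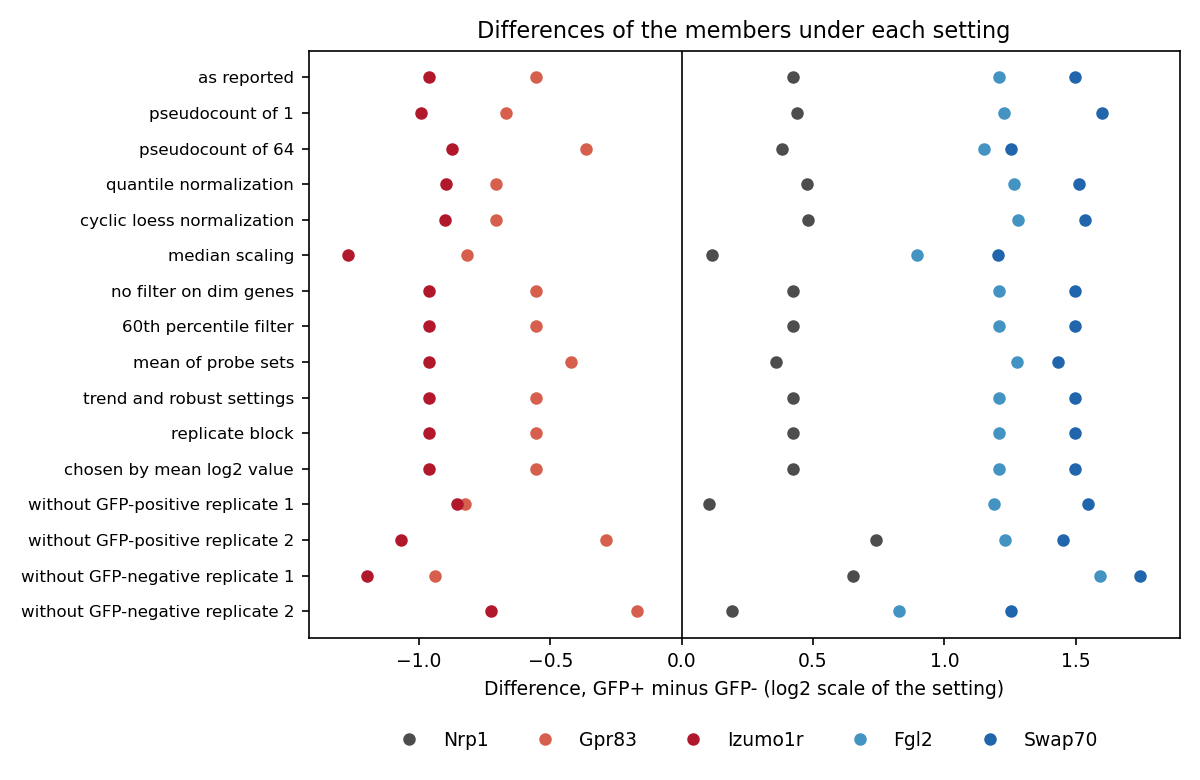
Log2 difference, GFP-positive minus GFP-negative, of the 5 measured members (colours) as reported and under each of the 15 alternatives (rows). No member crosses 0, Swap70 and Fgl2 stay the highest pair, and leaving out single arrays moves Nrp1 down to 0.11 and Gpr83 up to -0.17.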

How the data were processed

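Total RNA from sorted cells was biotin-labelled and hybridised to Affymetrix arrays, per the labels' protocols. The authors deposited a linear intensity for each probe set on each array, and for their software no name is given in the sources used here. With 2% of values trimmed from either tail the mean was 150.0 on every array. The medians were 46.0 and 45.2 in GFP-positive cells, against 37.0 and 36.1 in GFP-negative cells. Arrays thus shared a mean but not a distribution, and the median ran higher in GFP-positive cells. The 4 arrays, 2 per group, were grouped and numbered by title, and their number limits precision. Of 45101 probe sets, 34958 had 1 symbol in the platform annotation, which can be old; 932 had several and 9211 none.

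Here, log2(signal + 16) was fitted with limma 3.58.1 in R 4.3.3 (group as the only term, two-sided). The probe set of highest mean signal stood for a gene, and the 12241 genes above the 40th percentile (a signal of 29.53) were tested, with Benjamini-Hochberg adjustment at 0.05. A gene was called at an adjusted p under that threshold. Other probe sets came from the same fit over 27022 probe sets.

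The members and lists were chosen with earlier results of these data known. Named genes were the members, the 2 most alike tested genes of each, and from each list up to 6 of smallest p and the 3 brightest (for other cell types the brightest only); Cd4, Xist, Eif2s3y, Csf1r, Pcsk1n, Def6 and Pdcd1 were picked after their values were seen. Some listed genes are not analysed here. Alternatives covered pseudocounts of 1 and 64, quantile, cyclic loess and median scaling, filters, mean of probe sets, trend and robust settings, the replicate number as a block and leaving out each array.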

Additional observations from a re-analysis of the deposited data

How the results depend on the processing

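The 5 measured members kept their direction in all 75 combinations of member and alternative, and their side of the threshold in 72. In part of these combinations the direction could not change, because the setting leaves the difference as it is. With trend and robust settings Fgl2 (1.21, adjusted p = 0.0291) and Swap70 (1.50, adjusted p = 0.0109) passed, and with a pseudocount of 64 Swap70 passed (1.25, adjusted p = 0.0205). Over all tested genes limma called 0 as reported (1768 at an unadjusted p under 0.05), 171 with a pseudocount of 64, 43 with a filter at the 60th percentile, 6 with the mean of probe sets, 243 with trend and robust settings and 4 with probe sets chosen and filtered by mean log2 value, a setting added after seeing the data; without 1 array it called 0 each time. The cause of these changes was not tested. In that last setting another probe set stood for Sema4a, at -0.62. With the replicate number as a block limma called 0 genes (2119 at an unadjusted p under 0.05), and the adjusted p was 0.145 for Swap70, 0.173 for Fgl2, 0.176 for Izumo1r, 0.376 for Nrp1 and 0.480 for Gpr83, with no call changed. Deviations of same-numbered arrays from their group means correlated at 0.197 over genes, and with 2 pairs this does not settle a pairing. Genes with small differences changed sign: under median scaling Maf gave -0.24, Itgav -0.21 and Ctla4 -0.0081. Tgfbr2, at -0.76 as reported, gave 0.073 with the mean of its probe sets, which includes a probe set below the filter. Cd4 gave 0.051 with quantile and 0.049 with cyclic loess normalization. Leaving out each array in turn gave -0.059 to 0.21 for Maf, -0.28 to 0.0074 for Bcl6 and -0.12 to 0.096 for Cd4.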
